A study of Sus scrofa with 22 samples.

Results

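Membrane mucin and mucosal peptide genes were followed through pig taste organoids and the tongue tissue they came from. The 8 genes were picked by name: the membrane mucin genes MUC1, MUC4, MUC13, MUC15 and MUC20, and the genes of 3 small secreted or mucosal proteins, C14H10orf99, FAM3D and C7H6orf15. They are 8 of 26838 genes counted in all 22 libraries, and they were picked with earlier results of these data known. At least 4 of them had been seen lower without FGF10, and MUC13 is among the genes with the highest fold changes in organoids over papillae. The values of that medium comparison, and of MUC13 in organoids against papillae, are therefore given as a description with no p-value.

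Membrane mucins are long, heavily O-glycosylated proteins that span the apical membrane of wet epithelia. They hold a sugar-rich layer over the cell and signal through short cytoplasmic tails. Secreted mucins, by contrast, form the loose gel above that layer, and small cationic or cytokine-like peptides are released into it. In the oral cavity these products coat the stratified surface and the taste pores.

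Passage 1 organoids in LPM (5 libraries, 1 per pig) were compared with foliate papillae, the taste-bud-bearing folds at the side of the tongue, of the same 5 pigs. LPM(-)FGF10 organoids (3 libraries) were compared with organoids in LPM, which holds FGF10 at 100 ng/ml (3 libraries). Organoids moved at day 10 into CQ and kept there to day 16 or 17 (3 libraries) were compared with organoids kept in LPM (3 libraries). The age, sex and breed of the pigs, the composition of CQ and the pig or pigs behind each medium experiment are not given in the sources used here, and all organoids carry the label of a foliate cell line with stem and mature taste cells. All organoids shared the other LPM factors, among them EGF, FGF2, R-spondin 2, noggin, SHH, Wnt3a, insulin, CHIR99021, A-83-01, SB202190, Y-27632, forskolin and prostaglandin E2, the CQ cultures up to the change of medium. The labels give no day for the LPM libraries set beside CQ, and time in culture and medium cannot be told apart there. Organoids and papillae were extracted with different RNA kits, a difference that cannot be told apart from that between organoids and tissue. The libraries of the FGF10 experiment are titled as biological replicates, and those of the CQ experiment as samples. Whether the medium replicates came from separate animals is not stated. Their p-values therefore measure the spread between these libraries, which may be technical.

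Libraries held 14.67 to 27.77 M gene counts, 459 M in all. The CQ libraries were the smallest (14.67 to 16.0 M) and had the fewest detected genes, 14014 to 16005, against 17489 to 17920 in the LPM libraries beside them. Markers of gland (9 of 9 tested lower, among them BPIFA2 and OBP2B), muscle (7 of 7), fibroblasts (6 of 6), nerve (6 of 6), endothelium (4 of 5) and immune cells (7 of 9, with CD68 higher) were lower in passage 1 organoids than in papillae, and basal epithelial markers went both ways, 4 higher and 3 lower of 7. The summed level of the 11 gland markers was 13.8 to 110.5 CPM in these organoids and 43692 to 208883 CPM in papillae, where CPM are counts per 1 M of library size after TMM scaling (trimmed mean of M values). Of 12 suprabasal and cornified markers 11 were lower in organoids, with sums of 1450 to 2947 CPM in organoids and 27403 to 56900 CPM in papillae. All 9 markers of simple and taste bud epithelium, among them KRT7 and ELF3, were higher, with sums of 7627 to 12634 CPM in organoids and 1396 to 2334 CPM in papillae. The part of these cell type differences in the results below was not tested, and fewer cells of a type cannot be told apart from less RNA per cell in bulk libraries.

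On the Sscrofa11.1 assembly, MUC4 (chromosome 13, 134192412 to 134248435, plus strand) and MUC20 (134254978 to 134265950, minus strand) lie tail to tail, 6.542 kb apart. MUC13 (135416709 to 135446337, plus strand) lies 1.15 Mb further along chromosome 13, and FAM3D (40375536 to 40456057, minus strand) is on the same chromosome. MUC1 is on chromosome 4 (94626317 to 94631194, plus strand), MUC15 on chromosome 2 (33685075 to 33699492, plus strand) and C14H10orf99 on chromosome 14 (85404074 to 85421474, plus strand). MUC15 lies within ANO3, which runs on the other strand, and 305 bases of their exons overlap. C7H6orf15 is on chromosome 7 (23515637 to 23516912, minus strand), 3.229 kb from CDSN, the gene of corneodesmosin, an adhesion protein of cornified epithelium. Strand was ignored in the counting, so reads of MUC15 and ANO3 in the shared bases cannot be told apart.

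Organoids and papillae differed in some, not all, of the membrane mucins. Passage 1 organoids held MUC13 and more MUC20 than papillae, whereas MUC15 was almost unread in organoids and was found in papillae. MUC13, a mucin best known from intestinal epithelium, had 47.5, 192, 36.0, 131 and 47.6 CPM in the organoids of pigs 1 to 5, against 0.19, 0.90, 0.15, 0.19 and 0.07 CPM in their papillae. Every organoid library was above every papilla. In counts this was 11951 in organoids and 28 in papillae, and the fitted difference was 281-fold (log2 fold change 8.13, SE 0.74). The ratio within a pig ran between 212 and 711. Papilla 2 held 18 of the 28 papilla counts, and without it the log2 fold change was 9.21.

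MUC15, a smaller membrane mucin, had 1 count in the organoids of pig 1 and 0 in the other organoid libraries. In the papillae of pigs 1 to 5 it had 6.55, 10.9, 13.1, 5.28 and 7.44 CPM, which are 777 counts. The ratio of papillae over organoids was 1181 (exact 95% interval 211 to 46708, counting error only), and the difference passed edgeR's quasi-likelihood test (adjusted p = 2.78e-07, lower in 5 of 5 pigs). Its host gene ANO3 had 3 counts in organoids and 133 in papillae, fewer than MUC15 itself in papillae. MUC15 also had 0 counts in all 6 libraries of the FGF10 experiment, 0 in CQ and 2 in the LPM libraries beside CQ.

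MUC20, which in human cells binds the receptor MET, had 47.4, 34.4, 57.2, 6.27 and 35.3 CPM in the organoids of pigs 1 to 5, against 11.8, 16.0, 8.57, 2.42 and 11.1 CPM in papillae. It was higher in organoids in 5 of 5 pigs, by 2.14 to 6.67 times, although the organoids of pig 4 lay below most papillae and the groups overlapped. MUC20 rose 3.60-fold (log2 fold change 1.85, SE 0.55, adjusted p = 0.0111), a call lost with limma-voom (adjusted p = 0.0570). Its neighbour MUC4, a very large mucin known in rat and human cells as a partner of the receptor ERBB2, did not pass the test. MUC4 had 28.6, 94.7, 68.2, 38.2 and 90.0 CPM in organoids, against 30.0, 124, 15.1, 6.61 and 37.3 CPM in papillae. The groups overlapped, and the log2 fold change was 0.58 (95% interval -0.84 to 2.01, adjusted p = 0.443). That outcome depended on papilla 2, at 124 CPM, since without it the log2 fold change was 1.54 (edgeR adjusted p = 0.0226). The pairing moved the fitted difference but not the call. With the pig as a block and papilla 2 kept, the log2 fold change was 1.09 (edgeR adjusted p = 0.0727), still not called.

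MUC1, the broadly expressed epithelial mucin, was scarce in all of these libraries. It had 2.44, 0.90, 4.22, 0.20 and 1.84 CPM in organoids, against 4.32, 3.11, 1.22, 3.24 and 4.89 CPM in papillae. It was lower in the organoids of 4 of 5 pigs, but the groups overlapped and the difference did not pass the test (log2 fold change -0.81, 95% interval -2.17 to 0.56, adjusted p = 0.268). The levels rest on 240 counts in organoids and 280 in papillae.

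The secreted and mucosal members split as well. C14H10orf99 corresponds to human C10orf99, which encodes GPR15L, a peptide ligand of the T cell receptor GPR15 that is made by epithelia and also has antimicrobial activity. It had 14.6, 103, 20.5, 31.3 and 17.2 CPM in organoids, against 107, 236, 196, 156 and 104 CPM in papillae. No organoid library reached the lowest papilla, though that of pig 2 (103 CPM) lay just under it (104 CPM). This depended on the scaling. Scaled with all 22 libraries together, the organoids of pig 2 had 107 CPM, above the lowest papilla (104 CPM). C14H10orf99 fell 4.29-fold (log2 fold change -2.10, SE 0.53, adjusted p = 0.00437), and the ratio of papilla over organoid ran between 2.29 and 9.57 in the 5 pigs. Without the organoids of pig 2 the log2 fold change was -2.92.

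FAM3D, a cytokine-like protein secreted by gut epithelium in human and mouse, had 7.94, 31.6, 26.5, 12.9 and 12.6 CPM in organoids, against 36.3, 43.3, 25.0, 14.5 and 23.5 CPM in papillae. The ranges overlapped, and the log2 fold change was -0.64 (95% interval -1.51 to 0.22, adjusted p = 0.167). C7H6orf15, also called STG and known from taste buds of macaque, encodes a protein whose function is little known. It had 5277, 3517, 5614, 1596 and 5921 CPM in organoids, against 1355, 596, 1270, 611 and 1074 CPM in papillae. All organoids lay above all papillae. It rose 4.47-fold (log2 fold change 2.16, SE 0.39, adjusted p = 0.000450), by 2.61 to 5.90 times in the 5 pigs.

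**Figure D1:**
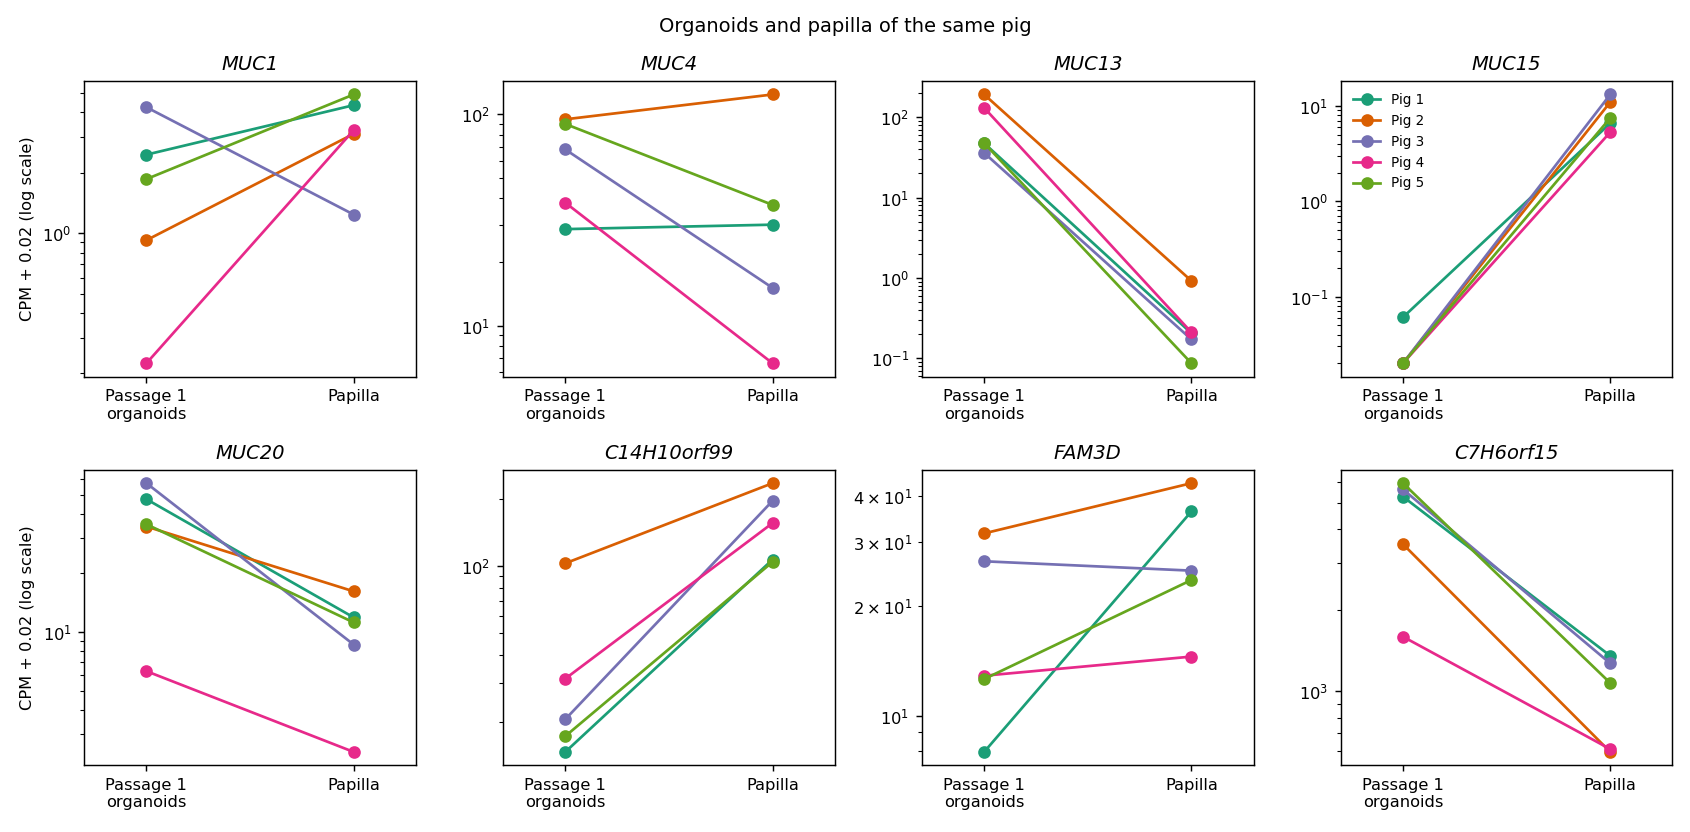
Level of each of the 8 genes in passage 1 organoids (left) and papilla (right) of the same pig, as CPM + 0.02 on a log axis; each line is 1 of 5 pigs. MUC13, MUC20 and C7H6orf15 are higher in the organoids of 5 of 5 pigs, MUC15 and C14H10orf99 are lower in 5 of 5, and MUC1, MUC4 and FAM3D have lines in both directions.

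All 8 genes passed the filter on low counts in this comparison. Of them 5 were called at an adjusted p under 0.05, 3 higher (MUC13, MUC20, C7H6orf15) and 2 lower (MUC15, C14H10orf99), beside 67.5% of all genes tested (32.4% higher and 35.1% lower). The call of MUC13 reflects how it was picked, and with it left aside 4 of 7 were called, no larger a share than among all genes tested. In the scaling of this comparison, groups without overlap were seen for MUC13 and C7H6orf15, which were higher, as 24.5% of all genes were. They were also seen for MUC15 and C14H10orf99, which were lower, as 29.6% were. The median log2 fold change was -0.03 over the 8 members and -0.01 over all genes. Scaling by library size alone shifted that median of all genes to 0.28, and no member changed direction under it.

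Read per kb of exon, the 5 mucin transcripts made up another mixture in organoids than in papillae. On the scale common to all 22 libraries, MUC13 took 26.9 to 87.0% (median 39.8%) of their summed CPM per kb in passage 1 organoids, against 0.194 to 1.66% (median 0.622%) in papillae. The share of MUC15 was at most 0.0198% in organoids and 9.36 to 31.2% in papillae, and that of MUC1 was 0.132 to 3.05% in organoids and 4.44 to 27.4% in papillae. MUC20 took a median of 37.4% in organoids and 41.5% in papillae. The sum of the 5 was 47.8 to 106 CPM per kb in organoids, above every papilla (4.38 to 26.0 CPM per kb). These shares follow from the levels above and add no test.

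**Figure D2:**
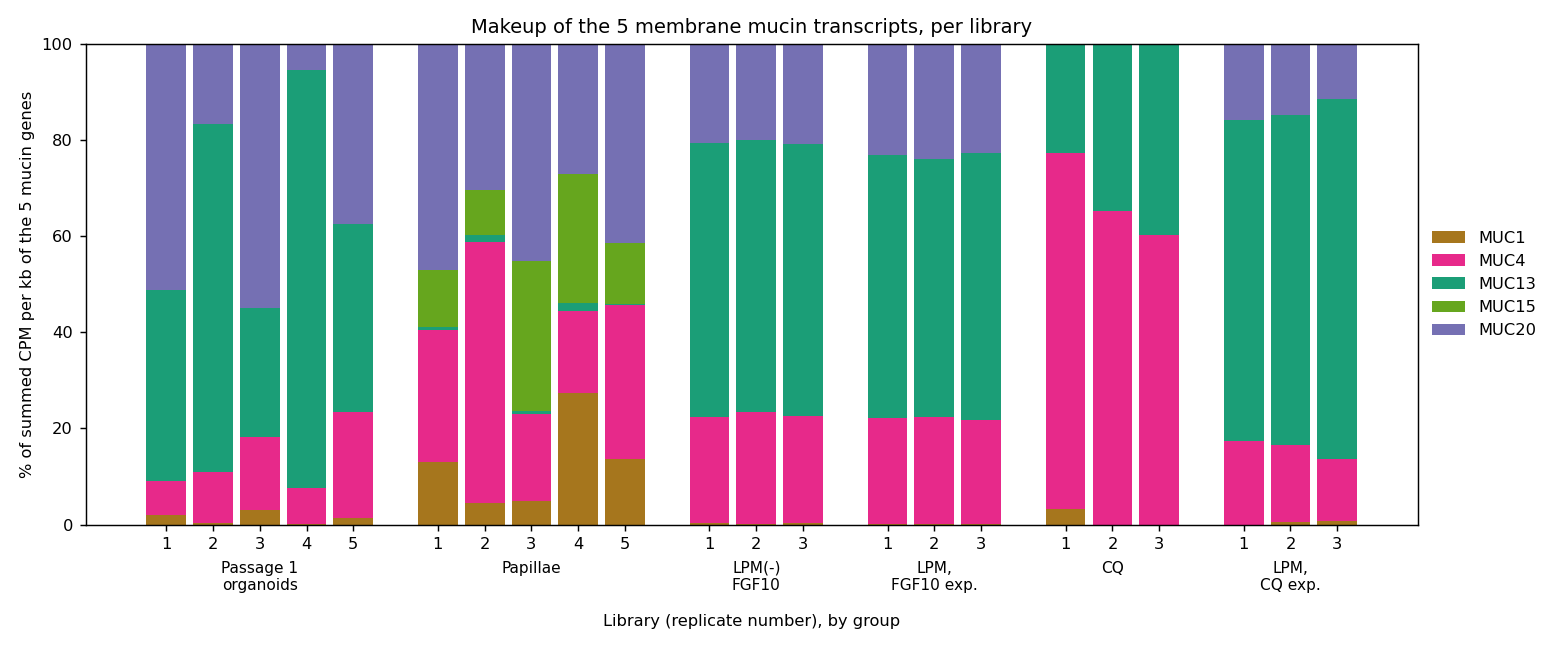
Share (%) of each gene in the summed CPM per kb of exon of MUC1, MUC4, MUC13, MUC15 and MUC20, 1 bar per library, by group and replicate number. MUC15 is visible in papillae, MUC13 takes 53.8 to 56.9% in the 6 libraries of the FGF10 experiment, and MUC4 takes 60.3 to 74.1% in CQ, where MUC20 has 0 counts.

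A membrane mucin outside the 8 was more abundant in papillae than the mucins among them. MUC21, a membrane mucin of stratified epithelium, fell 120-fold, to 2.53 ± 3.18 CPM in passage 1 organoids, against 299.6 ± 133.1 CPM in papillae (SD, n = 5 each; edgeR adjusted p = 7.16e-05). It averaged 126 CPM per kb in papillae, where MUC4 and MUC20 averaged 4.86 and 4.94 CPM per kb. MUC21 belongs to a list of 12 other membrane mucins and mucin-like proteins, of which 6 could be tested in this comparison, 1 was higher and 4 were lower (median log2 fold change -0.86). The higher one was CD164, the gene of sialomucin core protein, at 228 ± 62.8 CPM in organoids and 116 ± 31.3 CPM in papillae (SD, n = 5 each; edgeR adjusted p = 0.00320). EMCN, an endothelial sialomucin, had 1 count in organoids and 1421 in papillae, beside endothelial markers of which 4 of 5 were lower in organoids. The 5 endothelial markers summed to a median of 39.9 CPM in organoids and 345 CPM in papillae.

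Secreted mucins and goblet cell genes gave 2 higher and 9 lower genes of 13 tested (median -2.30). MUC5AC, the gel-forming mucin of airway and stomach surfaces, rose 7.44-fold, to 352 ± 281 CPM in organoids against 47.3 ± 24.9 CPM in papillae (SD, n = 5 each; adjusted p = 0.00660). CLCA1, a secreted goblet cell protein, rose 7.69-fold, to 2602 ± 2101 CPM against 339 ± 375 CPM in papillae (adjusted p = 0.0149). SPDEF, a transcription factor of goblet cells, fell 16.9-fold (adjusted p = 1.49e-05), and MUC19, a mucin of salivary glands, fell 511-fold (adjusted p = 3.28e-06), beside gland markers of which 9 of 9 tested were lower.

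Enzymes of mucin-type O-glycosylation went both ways, 9 higher and 11 lower of 27 tested (median -0.11). C1GALT1, which builds the core 1 sugar, rose 2.67-fold (88.4 ± 8.46 CPM in organoids, 33.1 ± 6.27 CPM in papillae; SD, n = 5 each; adjusted p = 5.71e-06). The sialyltransferase genes that cap such chains moved apart: ST3GAL1 rose 6.89-fold (adjusted p = 7.30e-07), and ST3GAL4 fell 354-fold (adjusted p = 2.26e-08). GALNT16, which starts O-glycan chains, fell 104-fold (adjusted p = 7.37e-08).

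Of the partners, sheddases and anchors of membrane mucins, 8 were higher and 2 lower of 16 tested (median 0.58). MET, the receptor bound by MUC20 in human cells, rose 8.48-fold, to 151 ± 19.04 CPM in organoids against 17.8 ± 3.71 CPM in papillae (SD, n = 5 each; adjusted p = 8.08e-08). ADAM10, a membrane sheddase, rose 7.97-fold (adjusted p = 1.05e-07). MSN, the cortical anchor moesin, fell 3.83-fold (adjusted p = 4.26e-05), and LGALS3, a lectin that binds mucin sugars, fell 1.73-fold (adjusted p = 0.000901).

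Among mucosal peptides, defence proteins and relatives of the peptide members, 3 were higher and 11 lower of 20 tested (median -1.64). SUSD2, reported as a partner of the C10orf99 protein in human colon cells, fell 215-fold, to 0.215 ± 0.211 CPM in organoids against 49.4 ± 6.23 CPM in papillae (SD, n = 5 each; adjusted p = 2.60e-07). GPR15 itself had 21 counts in organoids and 61 in papillae. The beta-defensin gene DEFB1 fell 748-fold (adjusted p = 2.53e-07). LCN2, an iron-siderophore-binding defence protein, rose 13.1-fold (adjusted p = 3.37e-05), and WFDC2, a small secreted epithelial protein, rose 3.66-fold (adjusted p = 0.000197).

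FGF10 is a mesenchymal growth factor that acts on epithelia through the receptor FGFR2b, and organoids without it were set beside organoids with it. MUC4, MUC13, MUC20, C14H10orf99 and FAM3D all had lower levels in LPM(-)FGF10 than in LPM, with no overlap between the groups, and C7H6orf15 stayed within its spread. The differences were small for the mucins and larger for C14H10orf99 and FAM3D. The 95% intervals of FAM3D (-1.11 to -0.67) and MUC20 (-0.78 to -0.56) overlapped. C14H10orf99 had 21.7, 17.7 and 24.5 CPM in LPM(-)FGF10, against 45.0, 43.5 and 50.9 CPM in LPM, a 2.19-fold lower level (log2 fold change -1.13, SE 0.08). FAM3D had 6.33, 5.84 and 7.35 CPM in LPM(-)FGF10, against 12.0 CPM in each LPM library, 1.85-fold lower (log2 fold change -0.89, SE 0.11).

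The mucin genes lay closer to their LPM levels. MUC20 had 26.5, 26.4 and 26.9 CPM in LPM(-)FGF10, against 41.6, 42.8 and 42.6 CPM in LPM, 1.59-fold lower (log2 fold change -0.67, SE 0.05). MUC4 had 123, 133 and 125 CPM in LPM(-)FGF10, against 171, 173 and 177 CPM in LPM, 1.37-fold lower (log2 fold change -0.45, SE 0.04). MUC13 had 94.0, 95.6 and 94.3 CPM in LPM(-)FGF10, against 127, 124 and 135 CPM in LPM, 1.36-fold lower (log2 fold change -0.44, SE 0.04). In each case the gap between the groups was wider than the range within either group.

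C7H6orf15 had 30577, 28681 and 31341 CPM in LPM(-)FGF10, against 28944, 29721 and 29014 CPM in LPM. The groups overlapped, with a log2 fold change of 0.05 (SE 0.04, 95% interval -0.04 to 0.14). It was the most abundant gene in all 6 of these libraries, taking 2.86 to 3.17% of their counts. MUC1 had 27 counts in LPM(-)FGF10 and 27 in LPM and was under the filter, as was MUC15 with 0 counts in both.

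Few genes differed in this experiment: edgeR called 1.78% of 14262 genes (0.582% higher and 1.2% lower), and without overlap 8.09% were higher and 8.55% lower. Of the 6 members tested 5 were called and lower without overlap, a count that reflects how they were picked and is read no further. Their median log2 fold change was -0.56, and that of all genes was 0.00. Of 5 other membrane mucins tested 0 were called with edgeR, DESeq2 or limma-voom, and 1 had an unadjusted edgeR p under 0.05 (median -0.04). CD164, the most abundant, had 199 ± 11.2 CPM in LPM(-)FGF10 and 204 ± 2.34 CPM in LPM (SD, n = 3 each; edgeR adjusted p = 0.797).

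Of 10 secreted mucin and goblet cell genes tested 3 were lower with edgeR (median -0.31), while DESeq2 called 1 and limma-voom 3. AGR2, a chaperone needed for secreted mucins, fell 1.40-fold (55.5 ± 3.78 CPM in LPM(-)FGF10, 77.4 ± 5.98 CPM in LPM; SD, n = 3 each; edgeR adjusted p = 6.33e-06), and TFF3, a trefoil peptide secreted with mucins, fell 1.27-fold (adjusted p = 0.00400). Of 25 O-glycosylation genes 2 were lower (median -0.01), B3GNT3 by 2.02-fold (adjusted p = 0.0185) and GALNT12 by 1.21-fold (adjusted p = 0.00669). LGALS3 was the 1 of 16 partner genes called, 1.14-fold lower (adjusted p = 0.00576), and that list had a median of -0.02. Of 14 mucosal peptide genes 5 were lower with edgeR (median -0.21), while DESeq2 called 3 and limma-voom 4. Among the 5 was FAM3B, a relative of FAM3D, which fell 1.43-fold (16.1 ± 1.04 CPM in LPM(-)FGF10, 23.03 ± 1.22 CPM in LPM; SD, n = 3 each; adjusted p = 0.000124). The other relatives FAM3A and FAM3C did not pass (adjusted p = 0.950 and 0.745). LCN2 fell 1.24-fold (adjusted p = 0.000138). The lists were chosen with earlier results of these data known, so their counts and p-values here are a description and no independent evidence.

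Of the 8 genes 4 were lower and 1 was higher in organoids finished in CQ than in organoids kept in LPM. C7H6orf15 fell 46.6-fold, MUC13 fell 5.78-fold, and MUC20 and C14H10orf99 had 0 counts in CQ, while MUC4 was somewhat higher. C7H6orf15 had 330, 205 and 239 CPM in CQ, against 10701, 11124 and 14224 CPM in LPM (log2 fold change -5.54, SE 0.21, edgeR adjusted p = 3.52e-07). By abundance it ranked between 399 and 770 in the CQ libraries and was the second gene (rank 2) in each LPM library. MUC13 had 2.29, 3.66 and 4.55 CPM in CQ, against 20.8, 19.8 and 20.3 CPM in LPM (log2 fold change -2.53, SE 0.28, adjusted p = 0.000107). Neither gene's groups overlapped.

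MUC20 had 0 counts in all 3 CQ libraries, against 3.83, 3.29 and 2.39 CPM in LPM, which are 201 counts. C14H10orf99 likewise had 0 counts in CQ, against 5.26, 4.81 and 4.42 CPM in LPM, which are 310 counts. Counts scattered more between CQ libraries than between the LPM libraries beside them, with a median variance over mean of 12.7 in CQ and 1.95 in LPM for genes averaging 10 to 30 counts. A floor of 38.0 counts over the group, 3 times that ratio, was therefore used for a gene at 0 in CQ, as decided once these values were known. With it MUC20 was at least 3.85-fold lower (adjusted p = 0.000947) and C14H10orf99 at least 5.94-fold lower (adjusted p = 0.000304) in CQ. The neighbouring MUC4 had 25.2, 23.1 and 23.3 CPM in CQ, against 18.2, 15.5 and 11.8 CPM in LPM. MUC4 rose 1.57-fold (log2 fold change 0.65, SE 0.20, adjusted p = 0.0223), a call that leaving out CQ 1, LPM 2 or LPM 3 ended (adjusted p = 0.0594, 0.0796 and 0.0609).

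FAM3D rested on few reads, with 0, 2.87 and 0.38 CPM in CQ (0, 47 and 6 counts), against 1.48, 2.30 and 2.03 CPM in LPM. CQ 2 alone lay above the LPM libraries. The difference did not pass the test (log2 fold change -0.83, 95% interval -3.56 to 1.90, adjusted p = 0.603), but without CQ 2 the log2 fold change was -3.31 (adjusted p = 0.0321). MUC1 had 5 counts in CQ and 8 in LPM, and MUC15 had 0 in CQ and 2 in LPM. No difference in either was detectable at this depth.

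**Figure D3:**
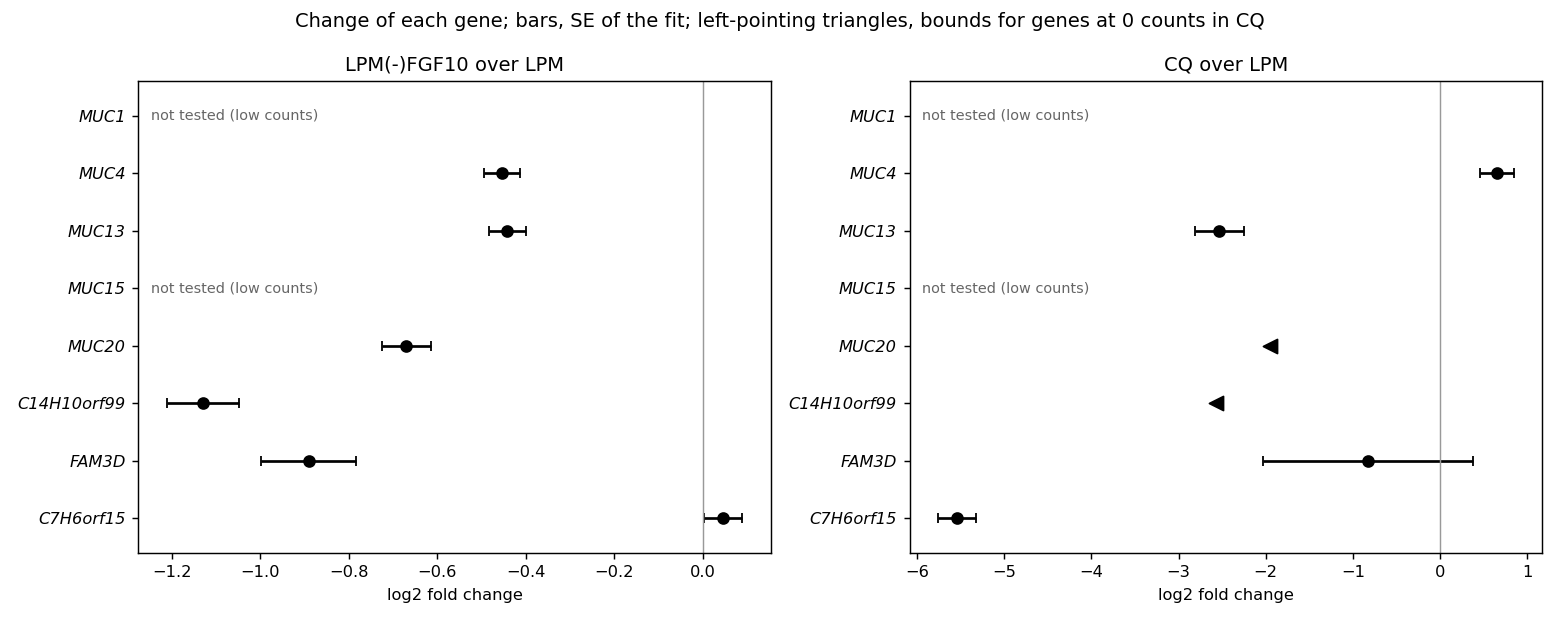
Log2 fold change of each gene in LPM(-)FGF10 over LPM (left, 3 libraries each) and in CQ over LPM (right, 3 libraries each); points are fitted values with their SE, and triangles mark the bounds for MUC20 and C14H10orf99, which had 0 counts in CQ. Values without FGF10 lie between -1.13 and 0.05, and in CQ C7H6orf15 is at -5.54 and MUC4 at 0.65.

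Of the 6 members tested here 5 were called, 1 higher and 4 lower, and their groups did not overlap. Over all 13827 genes the called share was 47.9% (23.1% higher, 24.8% lower), and without overlap 28.2% were higher and 32.9% lower. The median log2 fold change was -0.07 over all genes. Over the 6 members it was -4.04 as fitted, and -2.24 with MUC20 and C14H10orf99 set to their bounds. The basal epithelial markers, 5 of 7 of them lower, summed to 4466 to 4812 CPM in CQ and 6192 to 6598 CPM in LPM. Of 7 suprabasal and cornified markers tested 1 was higher and 2 were lower (median log2 fold change -0.47). Their sum was 3369 to 3568 CPM in CQ and 1238 to 1387 CPM in LPM, most of it from the higher one, the keratin gene KRT6A (3431 ± 94.4 CPM in CQ, 1067 ± 87.5 CPM in LPM; SD, n = 3 each). The part of these shifts in the members' values was not tested.

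The listed relatives in CQ were lower more often than higher. CLCA1 fell 94.0-fold, to 72.4 ± 37.0 CPM in CQ against 6798 ± 719 CPM in LPM (SD, n = 3 each; edgeR adjusted p = 2.04e-06), and AGR2 fell 4.52-fold (adjusted p = 9.67e-06). Both belong to the secreted mucin and goblet cell list, with 6 lower of 8 tested (median -2.75, or -2.59 with genes at 0 counts set to their bounds). Of 22 O-glycosylation genes 11 were lower (median -1.10). ST3GAL1 fell 23.5-fold (3.16 ± 1.21 CPM in CQ, 74.6 ± 15.3 CPM in LPM; SD, n = 3 each; adjusted p = 3.77e-06), and ST6GALNAC4, another sialyltransferase gene, fell 6.92-fold (adjusted p = 5.10e-06).

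Mucosal peptide genes gave 8 lower and 1 higher of 13 tested in CQ (median -2.80, or -2.49 with genes at 0 counts set to their bounds). WFDC2 fell 23.2-fold, to 8.66 ± 2.86 CPM in CQ against 200 ± 33.5 CPM in LPM (SD, n = 3 each; adjusted p = 1.55e-06), and LCN2 fell 6.94-fold (adjusted p = 7.63e-07). FAM3A, a relative of FAM3D, was the one that rose, by 2.11-fold (adjusted p = 0.00185). The partner list was even, 5 higher and 5 lower of 16 (median 0.04). LGALS3 rose 3.78-fold (422 ± 6.23 CPM in CQ, 112 ± 10.5 CPM in LPM; adjusted p = 1.68e-06) and EZR, the microvillar anchor ezrin, rose 1.61-fold (adjusted p = 0.000247). SLC9A3R1, a scaffold that ezrin binds, fell 3.79-fold (adjusted p = 6.92e-06), and CTNNB1, beta-catenin, which binds the MUC1 tail in human cells, fell 2.52-fold (adjusted p = 4.68e-06). Of 5 other membrane mucins tested CD164 alone was called, 1.25-fold higher (adjusted p = 0.0251), and the list's median was 0.10.

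CDSN, the neighbour of C7H6orf15, was likewise higher in organoids and lower in CQ. It rose 13.3-fold in passage 1 organoids over papillae (597 ± 581 CPM in organoids, 44.8 ± 18.1 CPM in papillae; SD, n = 5 each; edgeR adjusted p = 0.00172), the 1 suprabasal marker of 12 that was higher. It had 492 ± 10.9 CPM in LPM(-)FGF10 and 510 ± 14.9 CPM in LPM (SD, n = 3 each; adjusted p = 0.641). In CQ it fell 6.84-fold (19.4 ± 9.61 CPM in CQ, 133 ± 20.8 CPM in LPM; SD, n = 3 each; adjusted p = 0.000126). The adjacent MUC4 and MUC20, in contrast, had opposite signs in CQ, at 0.65 for MUC4 and at least 3.85-fold lower for MUC20.

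Across the 6 groups, on the common CPM scale, the members fell into different orders. Papillae came first for 4 genes: MUC15 (8.61 ± 3.25 CPM), C14H10orf99 (159 ± 56.6 CPM), FAM3D (28.3 ± 11.3 CPM) and MUC1 (3.33 ± 1.40 CPM; SD, n = 5 each). For FAM3D and MUC1 the range of the papillae overlapped that of passage 1 organoids, which came second. For C14H10orf99 the highest passage 1 organoid library (107 CPM) also lay above the lowest papilla (104 CPM) on this scale. C14H10orf99 was second in LPM of the FGF10 experiment (46.5 ± 3.67 CPM), where it overlapped the passage 1 organoids, and passed through LPM(-)FGF10 and LPM of the CQ experiment to 0 in CQ.

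The other 4 genes were highest in the FGF10 experiment. MUC4 averaged 174 ± 1.77 CPM in its LPM libraries (SD, n = 3), clear of the 126 ± 6.42 CPM in LPM(-)FGF10. By mean, passage 1 organoids, papillae, CQ and LPM of the CQ experiment came next. The papillae (6.53 to 124 CPM) overlapped every other group except LPM of the FGF10 experiment. MUC13 averaged 129 ± 4.91 CPM and MUC20 42.4 ± 0.503 CPM in LPM of the FGF10 experiment, and for both the wide range of passage 1 organoids overlapped this value. MUC13 was lowest in papillae (0.297 ± 0.339 CPM, n = 5), below CQ (3.06 ± 0.989 CPM, n = 3), whereas MUC20 was lowest in CQ. C7H6orf15 led in LPM(-)FGF10 (30058 ± 1036 CPM) and LPM (29251 ± 461 CPM), which overlapped, followed without further overlap by LPM of the CQ experiment, passage 1 organoids, papillae and CQ.

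**Figure D4:**
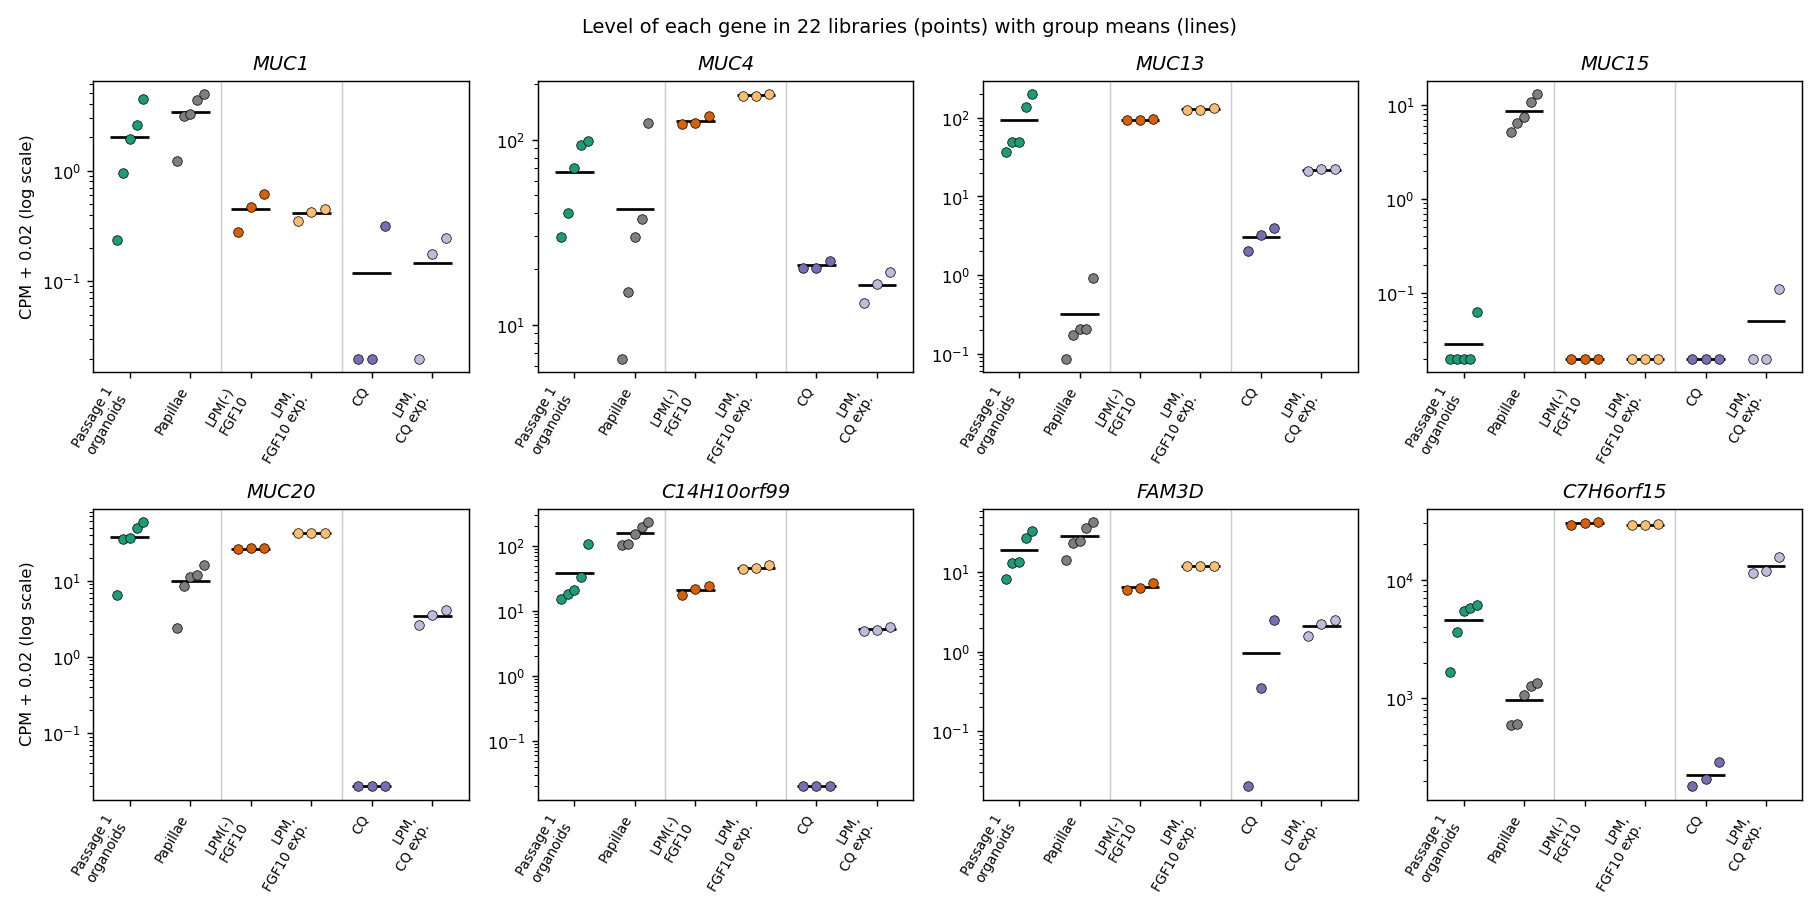
Level of each of the 8 genes in 22 libraries, as CPM + 0.02 on the scale common to all groups (log axis); points are libraries and lines group means, with 5 libraries each for passage 1 organoids and papillae and 3 for each other group. MUC15 is at 5.21 CPM or more in papillae and at 0.0897 CPM or less elsewhere, C7H6orf15 is at 11351 CPM or more in LPM and LPM(-)FGF10 of the medium experiments, and MUC20 and C14H10orf99 are at 0 in CQ.

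Organoids labelled LPM were not alike in these genes. MUC4 averaged 16.4 CPM in LPM of the CQ experiment, 174 CPM in LPM of the FGF10 experiment and 66.5 CPM in passage 1 organoids, and C14H10orf99 averaged 5.20, 46.5 and 38.8 CPM in the same order. MUC13 averaged 21.9, 129 and 94.5 CPM, and MUC20 averaged 3.41, 42.4 and 37.5 CPM. FAM3D averaged 2.09 CPM in LPM of the CQ experiment and 12.0 CPM in LPM of the FGF10 experiment, and had 8.23 to 32.8 CPM in passage 1 organoids, where its mean was the highest of the 3 groups. MUC1 averaged 0.127, 0.390 and 1.99 CPM in the same order, and C7H6orf15 averaged 12994, 29251 and 4554 CPM. The CQ experiment was counted with another featureCounts version and gene set, and the groups differ in experiment. The values are therefore set side by side with no test.

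C7H6orf15 was by far the most abundant member for its length, at 28791 CPM per kb in LPM(-)FGF10, 933 in papillae and 216 in CQ, all on the common scale. In passage 1 organoids MUC13 averaged 36.5, C14H10orf99 32.4, MUC20 18.6 and MUC4 7.63 CPM per kb, and the ranges of MUC13, C14H10orf99 and MUC20 over the 5 libraries overlapped. In papillae C14H10orf99 was next at 132 CPM per kb, and the 5 mucins and FAM3D each averaged at most 4.94 CPM per kb there.

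The members varied unequally between pigs. Within passage 1 organoids the highest library exceeded the lowest by 20.6 times for MUC1, by 9.12 times for MUC20, by 7.03 times for C14H10orf99, by 5.32 times for MUC13 and by 3.31 times for MUC4. Pig 4 was lowest in both organoids and papillae for MUC20. Pig 2 was highest in both organoids and papillae for 4 of the 8 genes, MUC4, MUC13, C14H10orf99 and FAM3D. Over the 16311 genes tested, 3.09% had pig 2 highest in both, and 23.1% had any 1 pig highest in both.

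Genes with the most similar profile to each member were sought among 14698 genes, by Pearson's r of log2(CPM + 1) over the 22 libraries. No p-value is given, since the libraries of a group share tissue or medium and experiment. MUC20 was closest to ERBB2 (r = 0.955), the receptor known as a partner of MUC4, and to ALDH1A3 (r = 0.952), a retinaldehyde dehydrogenase. MUC13 was closest to CD70, a TNF family ligand, and to the glutamine transporter gene SLC38A1 (r = 0.971 each). C14H10orf99 was closest to LRRC27 and ADAM15 (r = 0.969 each), and C7H6orf15 to LZTS1 (r = 0.976) and SULF1 (r = 0.973). FAM3D was closest to SELENBP1 (r = 0.950), MUC1 to MYZAP (r = 0.902) and PEG3 (r = 0.901), and MUC4 to ATF6B (r = 0.868) and OTUD5 (r = 0.854). The nearest genes to MUC15 had no name beyond a locus number.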

How the data were processed

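Poly-A RNA of 22 pig libraries was sequenced. The deposited files hold raw counts, whole numbers of read pairs for each gene, which the authors made with featureCounts; the submitters' processing notes also name FastQC 0.11.9, STAR 2.7.10b, MultiQC 1.14 and DESeq2. Per the file headers, the CQ experiment's 6 libraries were counted with featureCounts 2.0.6 (29850 named genes) and the other 16 with 2.0.3 (27376 genes), without regard to strand. Pairs over several genes were counted for each of them, and pairs with several mapping places for none, which bears on repeated mucin sequence. An entry without a gene name (0.326 to 0.477% of counts in the CQ experiment) was left out. Coordinates are those of the files and equal those of the Sscrofa11.1 gene table, where all 8 symbols matched.

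Each comparison was fitted on its own groups with edgeR 4.0.16 in R 4.3.3 (quasi-likelihood F test after TMM and filterByExpr). P-values were adjusted by Benjamini-Hochberg over every gene tested, with calls at an adjusted p under 0.05. DESeq2 1.42.0 and limma 3.58.1 (voom) were alternatives, beside other scalings, no filter, the replicate number as a block and leaving out each library. Fold changes come from the fit and CPM from its scaling. The order over groups uses CPM scaled over the 26838 shared genes. A group at 0 counts was given a floor of 3 counts, or of 38.0 counts in CQ; the interval of the MUC15 ratio and the floor of 3 counts cover counting error only, and the other intervals come from the fit and cover the spread between libraries. The fits were also run on simulated counts, drawn with edgeR's own estimates of spread and no pig effect. Such counts cannot show how well the fits suit these libraries, and no result rests on them.

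The members, the 5 gene lists and the 9 cell type lists were chosen with earlier results of these data known. Counts and adjusted p-values of list genes are therefore a description in every comparison. All 8 members are named, with the 2 called genes of smallest p in each direction of a list (the most abundant gene if none was called), and for likeness the 2 genes with the highest r among those averaging at least 1 CPM. ANO3, GPR15, and without FGF10 also FAM3A, FAM3C and CDSN, are named outside that rule, chosen after their values were seen. Same-numbered organoid and papilla libraries come from the same pig per the labels, and their deviations from the group means correlated at 0.034 to 0.090.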

Additional observations from a re-analysis of the deposited data

Results flagged for a closer look

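In groups of 5 libraries, 15 sets of CPM values were examined for a library far from the others. Dixon's criterion (a gap over range above 0.71) set 3 apart. Chance alone does so in about 1 in 20 groups only where values are normally distributed. The criterion was applied to CPM without a log, and each of the 3 was the highest of its 5 values. The 3 of 15 are therefore not compared with that rate. All 3 came from pig 2. MUC4 had 124 CPM in papilla 2, against 6.61 to 37.3 CPM in the other papillae. MUC13 had 0.902 CPM in papilla 2, against 0.0670 to 0.191 CPM in the others. C14H10orf99 had 103 CPM in organoid 2, against 14.6 to 31.3 CPM in the other passage 1 organoids. What sets these libraries apart was not tested.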

How the results depend on the processing

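Of 42 alternatives to the summary values, all stayed within 1.5 times the reported value: the members called numbered 4 to 6 in organoids over papillae and 4 to 6 in CQ over LPM, and the members' median without FGF10 ran between -0.58 and -0.55. Leaving out 1 library at a time gave 5 to 6 members called in organoids, 4 to 6 in CQ and medians of -0.576 to -0.552 without FGF10. Of 278 alternatives to single log2 fold changes 271 kept direction and, where a p-value was used, side of the threshold. No p-value was used for members without FGF10 or for MUC13 in organoids. Of the rest 0 reversed, 4 lost and 2 gained a call, and 1 moved. These are the MUC20, MUC4, FAM3D and MUC13 values given with the results above, and the cause was not tested. Over all alternatives the adjusted p ran between 0.000594 and 0.0570 for MUC20 and between 0.0226 and 0.656 for MUC4 in organoids, and between 0.0113 and 0.0796 for MUC4 and between 0.0321 and 0.816 for FAM3D in CQ. With the replicate block, 5 members were called in organoids, 5 in CQ, and the median without FGF10 was -0.56, so the pig as a block changed no member's call. Numbers in the medium experiments are no pairing by label, and same-numbered libraries correlated at -0.054 to 0.067 (FGF10) and -0.019 to 0.031 (CQ). Dividing CQ counts by their variance over mean, added after the data were seen, left 5 members called. Library size alone swapped the last places in the order of MUC1, and raised the share of higher among called genes in organoids to 59.6%, against 48.0% with TMM. The count of all genes called without FGF10 was 254, but 429 without a filter, 128 without LPM(-)FGF10 1 and 125 without LPM 2. MUC1 in both medium experiments, MUC15 in organoids and FAM3D in CQ are limited by depth.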
